A study of Mus musculus with 8 samples.

Results

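Liver RNA was read for 28 genes of cholesterol synthesis and its control by the transcription factor SREBP2, out of 24421 gene symbols in the deposited table. The members were chosen by symbol from knowledge of the pathway. They comprise 19 genes of synthesis, 4 of its control (Srebf2, Scap, Insig1 and Insig2) and 5 of sterol transport and storage (Stard4, Soat2, Npc1l1, Abcg5 and Abcg8). All 28 had a row, and 27 had enough counts to be tested, Npc1l1 being the exception. Of the 27, 0 cleared the count minimum in the libraries of 1 group alone. The samples were 4 livers labelled CAPZ_KO and 4 labelled WT, all from C57BL/6N mice of 8 to 10 weeks. CAPZ_KO mice carried Albumin-CreERT2 and Capzb-fl/fl and were injected with tamoxifen, which turns on the hepatocyte-driven Cre and removes part of Capzb, the beta subunit gene of actin capping protein. The 5 daily injections began at 4 to 6 weeks. WT livers came from injected Capzb-fl/fl mice without Cre or from Albumin-CreERT2;Capzb-fl/fl mice that were not injected, so that every animal carried the floxed alleles. Which kind of control each WT library is was not labelled, and deletion, presence of Cre and exposure to tamoxifen cannot be told apart here. Neither feeding state nor hour of collection is stated in the sources used here.

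Hepatocytes make much of the body's cholesterol from acetyl-CoA. The isoprenoid part of the route runs through HMG-CoA and mevalonate to farnesyl diphosphate, and the sterol part joins farnesyl units into squalene, closes the ring to lanosterol and trims lanosterol to cholesterol. Genes of both parts are classic targets of SREBP2, a membrane-bound factor that SCAP escorts from the endoplasmic reticulum to the Golgi for release by proteolysis. When sterols are abundant, INSIG proteins hold SCAP back, and the genes are transcribed less.

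SREBP2 is known to act on many of these genes with a partner, NF-Y, which binds the pentamer CCAAT. Promoter windows from RefSeq, of 250 bases before to 50 after a gene's start on GRCm38.p6, were found for 23 of the 28 members, and not for Fdps, Fdft1, Sqle, Stard4 and Soat2. CCAAT, searched on both strands, stood in at least 1 window of 21 of the 23 (91.3%), against 41.1% of the 27025 genes in the table. The nonamer TCACNCCAC, a form of the sterol regulatory element, stood in 1 of 23 (4.35%) searched likewise, against 1.44% of all genes. Of the members that fell in CAPZ_KO 12 of 14 with a window held CCAAT, and of the others 9 of 9. A match of letters is a description and not a binding site. Windows of 4 members are shown as examples, and a link between motif and change was not tested. Hmgcs1 alone held the nonamer, Ebp and Tm7sf2 had the lowest fold changes in synthesis, and Insig1 is both a target and a brake of SREBP2. Each is read 5′ to 3′ on the gene's strand, with either motif in capitals, including its reverse complement ATTGG. The windows lie at chr13:119690101-119690400 (plus strand), chrX:8193463-8193762 (minus strand), chr19:6067801-6068100 (minus strand) and chr5:28071162-28071461 (plus strand), in the order below.
Hmgcs1: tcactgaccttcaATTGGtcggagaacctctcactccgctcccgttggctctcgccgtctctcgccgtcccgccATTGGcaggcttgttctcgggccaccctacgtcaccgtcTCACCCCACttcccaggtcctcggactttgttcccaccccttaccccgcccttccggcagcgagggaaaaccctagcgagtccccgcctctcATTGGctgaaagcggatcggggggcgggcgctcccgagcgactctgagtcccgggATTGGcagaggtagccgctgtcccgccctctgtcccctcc
Ebp: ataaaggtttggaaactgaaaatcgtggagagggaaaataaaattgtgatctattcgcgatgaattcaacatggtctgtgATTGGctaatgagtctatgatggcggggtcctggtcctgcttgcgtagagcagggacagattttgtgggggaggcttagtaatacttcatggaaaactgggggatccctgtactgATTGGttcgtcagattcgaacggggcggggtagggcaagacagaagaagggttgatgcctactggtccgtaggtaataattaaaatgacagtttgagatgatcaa
Tm7sf2: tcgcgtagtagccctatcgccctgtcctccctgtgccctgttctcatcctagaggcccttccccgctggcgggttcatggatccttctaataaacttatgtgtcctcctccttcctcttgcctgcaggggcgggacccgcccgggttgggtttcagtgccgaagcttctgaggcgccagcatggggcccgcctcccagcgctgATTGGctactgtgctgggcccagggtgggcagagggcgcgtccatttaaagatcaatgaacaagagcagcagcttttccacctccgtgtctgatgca
Insig1: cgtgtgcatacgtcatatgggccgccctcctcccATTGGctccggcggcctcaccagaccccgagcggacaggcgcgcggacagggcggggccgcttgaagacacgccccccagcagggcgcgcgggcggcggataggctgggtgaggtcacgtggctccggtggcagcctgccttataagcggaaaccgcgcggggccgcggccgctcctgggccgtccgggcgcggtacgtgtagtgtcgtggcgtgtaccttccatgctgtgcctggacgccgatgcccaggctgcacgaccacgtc
Capitals occur 5 times in the Hmgcs1 window, where TCACCCCAC lies between copies of ATTGG. Fewer stand in the others, with 2 in Ebp and 1 each in Tm7sf2 and Insig1.

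Cholesterol synthesis genes were lower in CAPZ_KO livers. Of 27 members tested, 18 fell and 0 rose at an adjusted p under 0.05 by the edgeR quasi-likelihood test over all genes. At an unadjusted p under 0.05, Insig2 was higher as 1 further member and Insig1 lower, and DESeq2 and limma-voom each called 1 member higher, again Insig2. Over all 12985 genes tested, 41.4% were called, 22.4% higher and 19.0% lower, so that falls were frequent in the whole table too. The median log2 fold change of the 27 members was −1.04, while that of all tested genes was −0.00293. In 15 members every CAPZ_KO library lay below every WT library, and in 0 above. Groups were apart in 40.3% of all tested genes, with CAPZ_KO below in 18.2% and above in 22.1%. Levels are in CPM, counts scaled to a common library size by TMM, a method that takes most genes as unmoved, and the number of calls depends on that scaling. Scaled by library sizes alone, the median of all genes moved by 0.625 on the log2 scale, 91.6% of all calls were higher in CAPZ_KO against 54.1% with TMM, and of the members 10 fell and 4 rose. Relative to that median the members lay at −1.01, against −1.04 with TMM, so that folds below are relative to the bulk of genes.

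The libraries held 13122355 to 16984971 counts in CAPZ_KO and 12060350 to 18916315 in WT. Capzb stood at 69.4, 79.6, 64.5 and 76.4 CPM in CAPZ_KO libraries and 139.6, 109, 118 and 114 CPM in WT libraries, lower in each CAPZ_KO library (log2 fold change −0.73 with an SE of 0.125, edgeR adjusted p = 0.00134). Reads of the deleted and the remaining exons are summed in that value. Of 10 hepatocyte markers tested 8 fell, with a median of −1.38 on the log2 scale and a summed level of 63271 to 92064 CPM in CAPZ_KO and 189799 to 243366 CPM in WT. Apoa1 at −0.46 and Trf at −0.04 (log2) were not called (edgeR adjusted p = 0.215 and 0.871). Alb made up most of the sum in WT, at a mean of 146748 of 212724 CPM. Of the 10 hepatocyte markers, none was at 0 in any library. In bulk tissue fewer cells of a type and less RNA per cell cannot be told apart, and the part of hepatocyte content in the falls below was not tested. Xist and Y-linked counts marked CAPZ_KO 4 and WT 4 as female and the other 6 libraries as male. Without both, the same 18 members fell, with a median of −1.0.

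**Figure D1:**
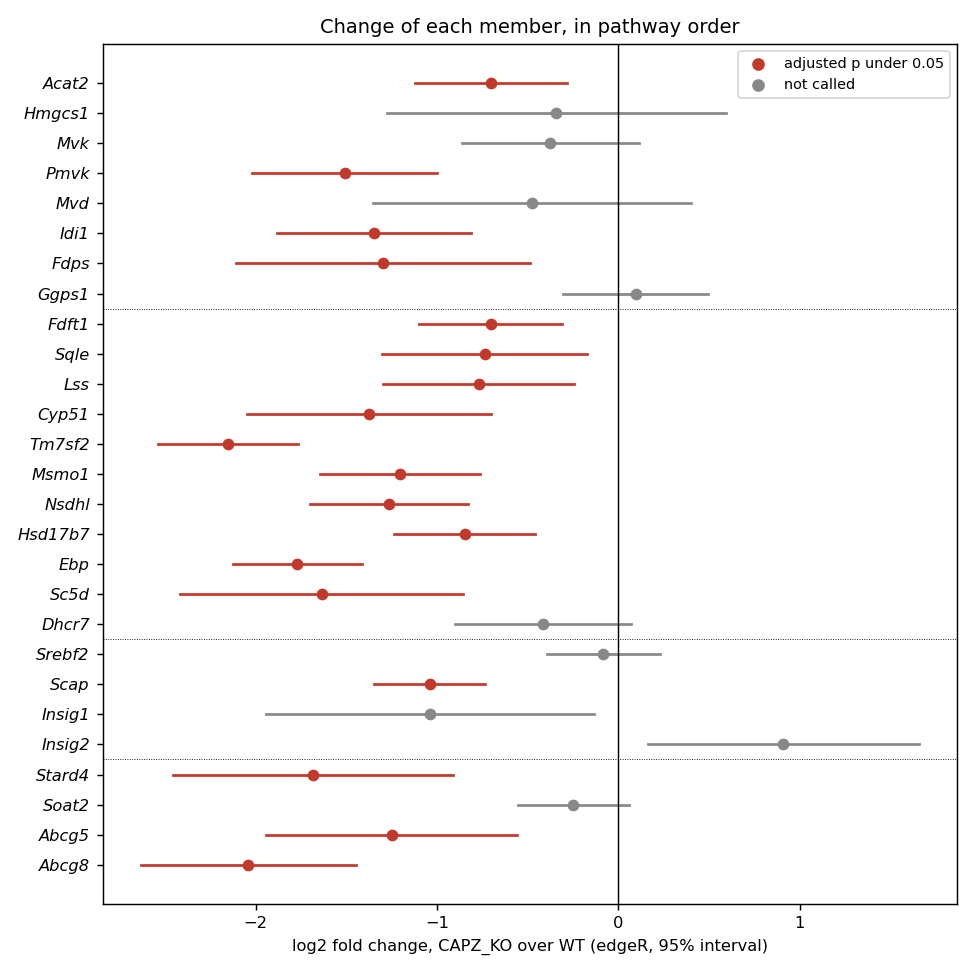
Log2 fold change of CAPZ_KO over WT (x axis) for the 27 tested members (y axis, in pathway order, dotted lines between isoprenoid synthesis, sterol synthesis, control and transport). Points are edgeR estimates, bars their unadjusted 95% intervals, and red marks an adjusted p under 0.05. All 18 called genes lie left of 0, from Tm7sf2 at −2.15 to Acat2 at −0.70, and Insig2 at 0.91 lies farthest right.

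Among isoprenoid genes 4 of 8 fell, and the median over the 8 was −0.59 (log2 fold change). Acat2, the cytosolic thiolase that joins acetyl-CoA units, stood at 47.4, 35.9, 47.7 and 33.9 CPM in the CAPZ_KO libraries, against 87.7, 58.6, 70.1 and 52.1 CPM in the WT libraries. The groups did not overlap (log2 fold change −0.70 with an SE of 0.187, edgeR adjusted p = 0.0132). Hmgcs1, the cytosolic HMG-CoA synthase of the next step, had 419.7, 147, 275 and 138 CPM in the CAPZ_KO libraries, against 533, 271, 243 and 195 CPM in the WT libraries. Its groups overlapped widely, with replicate 1 the highest in each, and its log2 fold change, −0.34 with an SE of 0.416, had a 95% interval of −1.28 to 0.59 and an edgeR adjusted p = 0.538. Without WT 1 the estimate was 0.0421.

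Mevalonate is phosphorylated by the kinases Mvk and Pmvk. Mvk stood at 25.7 ± 4.20 CPM in CAPZ_KO and 33.4 ± 10.2 CPM in WT (SD, n = 4 each), with an edgeR adjusted p = 0.196 and a 95% interval of −0.86 to 0.11 for the log2 fold change. Without WT 4, the lowest WT library at 21.2 CPM, Mvk had a log2 fold change of −0.55 with an edgeR adjusted p of 0.0348. Leaving out WT 1 instead gave −0.21 with an edgeR adjusted p of 0.424. Pmvk had 22.1, 21.2, 28 and 19.2 CPM in the CAPZ_KO libraries, against 96.8, 47.7, 62.5 and 50.8 CPM in the WT libraries. The groups were well apart, and WT 1 was the highest library (log2 fold change −1.51 with an SE of 0.230, edgeR adjusted p = 0.000677). Mvd, the decarboxylase that yields the isoprene unit, was at 16.9 ± 7.45 CPM in CAPZ_KO and 23.6 ± 10.8 CPM in WT (SD, n = 4 each), and its interval of −1.35 to 0.40 leaves the direction unresolved (edgeR adjusted p = 0.354).

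Idi1, which isomerises the isoprene units, had 9.73, 5.28, 11.4 and 8.03 CPM in the CAPZ_KO libraries, against 19.1, 27.9, 23.2 and 17.4 CPM in the WT libraries. Groups were apart (log2 fold change −1.35 with an SE of 0.241, edgeR adjusted p = 0.00164). Fdps, farnesyl diphosphate synthase, had 121, 69.3, 127 and 72.2 CPM in the CAPZ_KO libraries, against 357, 161, 314 and 123 CPM in the WT libraries. The groups met at 1 point, where CAPZ_KO 3 lay just above WT 4 (log2 fold change −1.30 with an SE of 0.362, edgeR adjusted p = 0.0175). Ggps1 draws farnesyl diphosphate away from sterols to make the geranylgeranyl group. It stood at 7.64 ± 1.16 CPM in CAPZ_KO and 7.14 ± 1.04 CPM in WT (SD, n = 4 each), with a log2 fold change of 0.10 with an SE of 0.180, a 95% interval of −0.30 to 0.50 and an edgeR adjusted p = 0.695. The difference between Ggps1 and Fdps was not tested. Exons of Ggps1 overlap those of Arid4b on the opposite strand and exons of Fdps those of Gm43738 on the same strand, and the strand setting of the counting is not given in the sources used here.

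Among sterol genes 10 of 11 fell, Dhcr7 being the exception, and the median over the 11 was −1.20 (log2 fold change). The parts were not tested against each other. Fdft1, squalene synthase, had 91.8, 87.2, 94.6 and 63.7 CPM in the CAPZ_KO libraries, against 173, 123, 144 and 109.6 CPM in the WT libraries. Groups were apart, with CAPZ_KO 4 the lowest of all (log2 fold change −0.70 with an SE of 0.178, edgeR adjusted p = 0.0102). Sqle, squalene epoxidase, which controls the flow into sterols, had 91.5, 62.8, 91.3 and 55.2 CPM in the CAPZ_KO libraries, against 134, 161, 133 and 73.0 CPM in the WT libraries. CAPZ_KO 1 and 3 were above WT 4, and the call (log2 fold change −0.74 with an SE of 0.253, edgeR adjusted p = 0.0405) was lost without CAPZ_KO 2 or 4 or WT 1, 2 or 3, at edgeR adjusted p of 0.0772 to 0.101, and under upper quartile scaling. Lss, lanosterol synthase, had 46.7, 30.7, 48.1 and 31.2 CPM in the CAPZ_KO libraries, against 79.8, 55.2, 86.8 and 45.6 CPM in the WT libraries. Here too CAPZ_KO 1 and 3 lay above WT 4 (log2 fold change −0.77 with an SE of 0.237, edgeR adjusted p = 0.0252). Without CAPZ_KO 2 or 4 or WT 1 or 3 that adjusted p was 0.0605 to 0.0689.

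The members that act in the steps taking methyl groups off lanosterol, 5 in number, fell with their groups apart. Lbr, which is no member and encodes the other reductase for the step of Tm7sf2, had a log2 fold change of −0.09 with an SE of 0.142 (edgeR adjusted p = 0.634), and its groups overlapped. Cyp51, the demethylase that acts first, had 137, 72.0, 114 and 57.8 CPM in the CAPZ_KO libraries, against 324, 264, 244 and 154 CPM in the WT libraries. CAPZ_KO 1, the highest of its group, stayed under WT 4, the lowest of WT (log2 fold change −1.37 with an SE of 0.301, edgeR adjusted p = 0.00514). Tm7sf2, a sterol reductase, had 49.7, 35.3, 40.2 and 35.5 CPM in the CAPZ_KO libraries, against 229, 154, 164 and 169 CPM in the WT libraries. CAPZ_KO held 22.5% of the WT mean, the lowest fold change among the members (log2 value −2.15 with an SE of 0.173, edgeR adjusted p = 2.42e-05). Exons of Tm7sf2 overlap those of Vps51 on the same strand, and those of Cyp51 overlap Akap9 on the opposite strand, so that a part of their reads may belong to these neighbours. The same limit holds for Hmgcs1 (Gm48342), Idi1 (Gm48574), Fdft1 (Ctsb), Lss (4930483K19Rik) and Scap (5830462I19Rik), with overlaps on the opposite strand.

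Msmo1, the methyl sterol oxidase, had 116, 102, 132 and 73.7 CPM in the CAPZ_KO libraries, against 262, 235, 287 and 191 CPM in the WT libraries. Nsdhl, the dehydrogenase after it, had 61.7, 40.7, 52.8 and 43.5 CPM in the CAPZ_KO libraries, against 146, 117, 132 and 82.9 CPM in the WT libraries. Msmo1 had a log2 fold change of −1.20 with an SE of 0.198 (edgeR adjusted p = 0.00102) and Nsdhl of −1.26 with an SE of 0.197 (edgeR adjusted p = 0.000754), with WT 4 the lowest WT library in both. Hsd17b7, the ketoreductase that completes demethylation, had 37.7, 26.6, 38.5 and 44.8 CPM in the CAPZ_KO libraries, against 55.4, 77.5, 71.5 and 60.9 CPM in the WT libraries. CAPZ_KO 4 was the highest of its group here, the 1 synthesis gene of 19 where it was (log2 fold change −0.85 with an SE of 0.175, edgeR adjusted p = 0.00358).

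Ebp, the isomerase that moves the ring double bond, had 115, 94.7, 109 and 93.1 CPM in the CAPZ_KO libraries, against 449, 313, 324 and 318 CPM in the WT libraries. The CAPZ_KO libraries lay close together and far under every WT library (log2 fold change −1.77 with an SE of 0.161, edgeR adjusted p = 4.38e-05). Sc5d, the desaturase that follows, had 283, 115, 292 and 113 CPM in the CAPZ_KO libraries, against 747, 524, 748 and 476 CPM in the WT libraries. Within each group its libraries split, with replicates 1 and 3 high and 2 and 4 low, yet the groups did not overlap (log2 fold change −1.63 with an SE of 0.350, edgeR adjusted p = 0.00461). Dhcr7, the reductase whose substrate is also the precursor of vitamin D, showed the same split, with 108, 80.6, 106 and 72.6 CPM in the CAPZ_KO libraries, against 152, 98.3, 153 and 86.7 CPM in the WT libraries. Its groups overlapped, and its log2 fold change, −0.42 with an SE of 0.218, had a 95% interval of −0.90 to 0.07 (edgeR adjusted p = 0.152). Per kilobase of annotated exon, Ebp and Sc5d were the synthesis genes with the highest levels in WT, at 152 and 128 CPM per kb, and Hmgcs1 followed at 67.6. In CAPZ_KO the order of these was Hmgcs1 at 53.3, Ebp at 44.6 and Sc5d at 41.3 CPM per kb, which do not differ beyond their SDs of 28.8, 4.67 and 20.6.

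**Figure D2:**
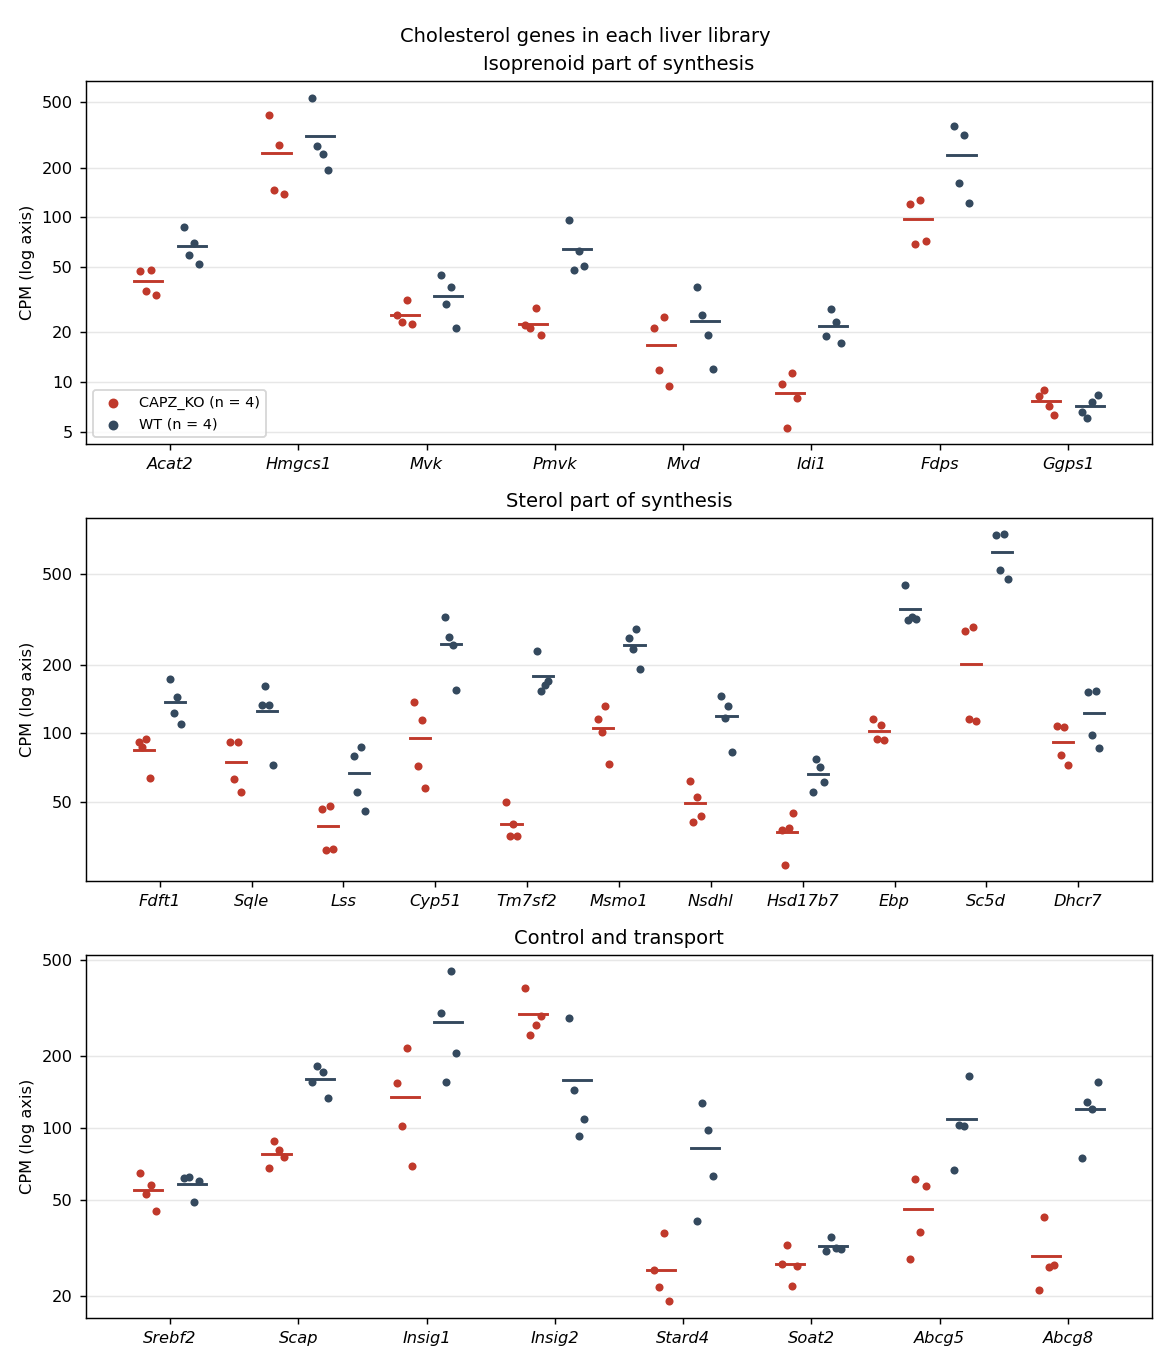
Level of each tested member in CPM (y axes, logarithmic) in the 4 CAPZ_KO libraries (red, left of each pair) and the 4 WT libraries (dark, right), with bars at the group means. The upper panel holds the isoprenoid part, the middle panel the sterol part and the lower panel control and transport. Tm7sf2, Ebp, Scap and Abcg8 are among the genes whose groups are fully apart, while Hmgcs1, Ggps1, Srebf2 and Soat2 overlap.

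Control genes did not move as a block. Srebf2, which encodes SREBP2, had 64.6, 52.9, 57.8 and 45.0 CPM in the CAPZ_KO libraries, against 61.6, 62.7, 49.3 and 59.9 CPM in the WT libraries. These groups interleave, and its log2 fold change, −0.08 with an SE of 0.140, had a 95% interval of −0.39 to 0.23 (edgeR adjusted p = 0.658). Its direction is not settled either, being positive under library sizes alone (0.55, edgeR adjusted p = 0.0128) and at 0.00962 without both female libraries. Scap, the escort of SREBP2, had 67.9, 88.0, 80.6 and 75.9 CPM in the CAPZ_KO libraries, against 155, 182, 171 and 134 CPM in the WT libraries. The groups did not overlap, and CAPZ_KO held 48.6% of the WT mean (log2 fold change −1.04 with an SE of 0.138, edgeR adjusted p = 0.000312). Among other genes of SREBP processing, chosen after their values were seen, the Golgi proteases Mbtps1 and Mbtps2 did not pass the test. Mbtps1 had −0.16 with an SE of 0.114 on the log2 scale (edgeR adjusted p = 0.271) and Mbtps2 had 0.34 with an SE of 0.146 (edgeR adjusted p = 0.0828). Srebf1, the gene of the related factor of fatty acid synthesis, had a log2 fold change of −0.74 with an SE of 0.368 (edgeR adjusted p = 0.133). Without CAPZ_KO 3 the value was −1.10 (edgeR adjusted p = 0.0396), and without WT 3 it was −0.30 (edgeR adjusted p = 0.413).

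The paralogues Insig1 and Insig2, which both retain SCAP, stood on opposite sides of 0. They lie on different chromosomes, Insig1 on chromosome 5 from 28071363 to 28078662 and Insig2 on chromosome 1 from 121304353 to 121332589 (GENCODE vM21, GRCm38). Insig1, itself an SREBP target, had 154, 102, 216 and 69.2 CPM in the CAPZ_KO libraries, against 301, 155, 450.3 and 204 CPM in the WT libraries. CAPZ_KO 3 lay above WT 2 and WT 4, and the log2 fold change, −1.04 with an SE of 0.404, missed the threshold (edgeR adjusted p = 0.0646). That p was 0.0279 without CAPZ_KO 3, 0.0373 without WT 2 and 0.0324 with sex as a term, and the DESeq2 adjusted p was 0.0162. In the other direction the edgeR adjusted p was 0.127 without CAPZ_KO 4, 0.135 without CAPZ_KO 2 and 0.173 without WT 3, the highest of both groups. Insig2, which in mouse liver is known for a transcript that insulin represses, had 384, 245, 269.8 and 291 CPM in the CAPZ_KO libraries, against 288, 144, 92.6 and 109 CPM in the WT libraries. Counts per gene do not separate its transcripts. CAPZ_KO libraries were above WT 2, 3 and 4, while WT 1 lay among them. For Insig2 the log2 fold change, 0.91 with an SE of 0.334, missed the threshold too (edgeR adjusted p = 0.0523), and without WT 1 it was 1.36 (edgeR adjusted p = 0.00119). By DESeq2, limma-voom and upper quartile scaling in edgeR the adjusted p was 0.0228, 0.0318 and 0.0412, and by edgeR with TMM it reached 0.165 without both female libraries.

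A ratio of genes within a library does not depend on scaling between libraries. The ratio of Insig1 to Insig2 was 0.401, 0.416, 0.800 and 0.237 in the CAPZ_KO libraries, against 1.04, 1.08, 4.86 and 1.87 in the WT libraries. Every CAPZ_KO library was below 1 and every WT library above it. The mean log2 ratio was −1.25 ± 0.718 in CAPZ_KO and 0.84 ± 1.04 in WT (SD, n = 4 each), a difference of −2.08. An exact two-sided permutation test gave p = 0.0286, the smallest that 70 arrangements allow, and 0.0571 after Benjamini-Hochberg adjustment over the 3 ratios examined, of which 2 are reported. The ratio was lower in 4 of 4 CAPZ_KO libraries than in any WT library, but the difference did not pass the correction.

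**Figure D3:**
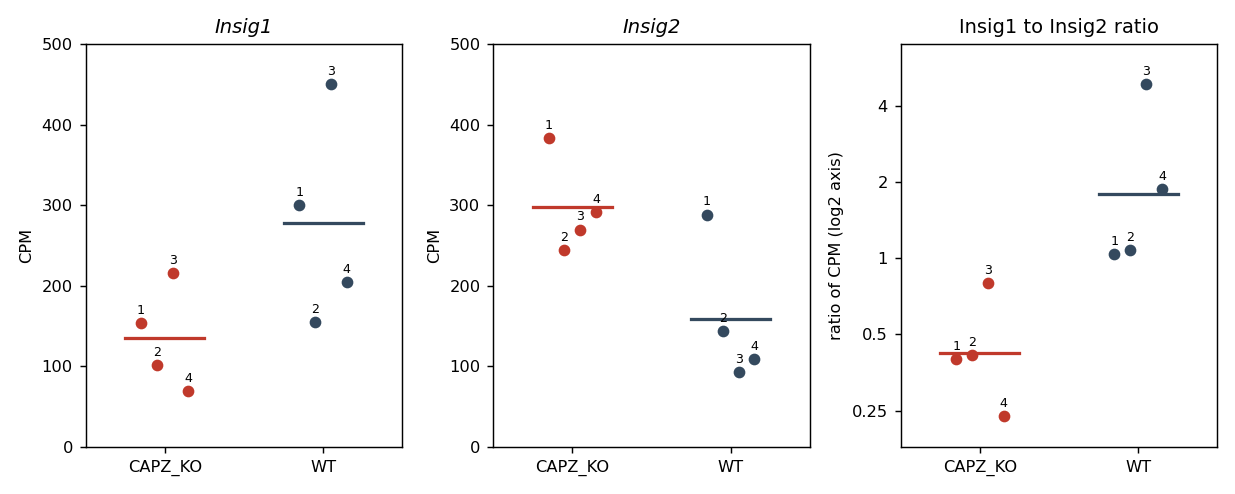
CPM of Insig1 and Insig2 (left and middle, linear axes from 0) and their ratio within each library (right, log2 axis) in CAPZ_KO (red) and WT (dark). Points are libraries, marked with their replicate number, and bars are means (the geometric mean for the ratio). The ratio separates the groups, from 0.237 to 0.800 in CAPZ_KO and from 1.04 to 4.86 in WT, while either gene alone overlaps.

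Of the transport members tested 3 of 4 fell. Stard4, a sterol carrier of the cytosol and an SREBP target, had 25.5, 21.6, 36.5 and 18.9 CPM in the CAPZ_KO libraries, against 40.8, 127, 97.9 and 63.1 CPM in the WT libraries. WT 1 was the lowest WT library and still above all CAPZ_KO libraries (log2 fold change −1.68 with an SE of 0.345, edgeR adjusted p = 0.00399). Abcg5 and Abcg8 pair in the canalicular membrane to export sterol into bile, and are targets of the oxysterol receptor LXR rather than of SREBP2. Abcg5 had 28.4, 61.0, 37.0 and 57.2 CPM in the CAPZ_KO libraries, against 66.6, 103, 102 and 165 CPM in the WT libraries. Abcg8 had 21.1, 42.3, 26.4 and 26.8 CPM in the CAPZ_KO libraries, against 74.6, 128, 120.2 and 156 CPM in the WT libraries. In both genes the groups were apart, WT 4 was the highest library and CAPZ_KO 1 the lowest, whereas WT 4 was the lowest of WT in 14 of 19 synthesis genes. The log2 fold change of Abcg5 was −1.25 with an SE of 0.309 (edgeR adjusted p = 0.00986) and that of Abcg8 −2.04 with an SE of 0.265 (edgeR adjusted p = 0.000302). They lie head to head on chromosome 17, Abcg5 from 84658234 to 84683011 on the minus strand and Abcg8 from 84676302 to 84700333 on the plus strand (GENCODE vM21, GRCm38), and their annotated exons overlap, so that reads there could be assigned to either.

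Soat2, which esterifies cholesterol in hepatocytes and is a different gene from the thiolase Acat2, had 27.0 ± 4.42 CPM in CAPZ_KO and 32.1 ± 1.92 CPM in WT (SD, n = 4 each). Its 95% interval of −0.55 to 0.06 for the log2 fold change was among the narrowest here (edgeR adjusted p = 0.173). The related Soat1, which most cells and macrophages in particular express, rose by 0.92 (edgeR adjusted p = 0.0313). That call was lost without CAPZ_KO 3 or 4 or WT 2 or 3, at edgeR adjusted p of 0.0569 to 0.0838. The ratio of Soat2 to Soat1 was 1.69, 2.04, 1.18 and 0.952 in the CAPZ_KO libraries, against 5.72, 3.26, 3.39 and 2.0 in the WT libraries. WT 4 lay under CAPZ_KO 2, and an exact two-sided permutation test gave p = 0.0571, also after adjustment over 3 ratios, for a log2 difference of −1.26, lower in mean in CAPZ_KO. Npc1l1, the sterol uptake protein of intestine, is known to be nearly absent from mouse liver. It had 14, 3, 8 and 1 counts in the CAPZ_KO libraries and 0 in each WT library. The pooled CAPZ_KO level of 0.332 CPM was 5.98-fold a floor of 3 counts over the WT group (0.0555 CPM). That floor allows for counting error in WT only, and the fold is not a lower bound. CAPZ_KO 1 and 3 gave most of the counts, and CAPZ_KO 4, at 0.0511 CPM, lay below the floor. Of 2 gut epithelial markers tested, Vil1, which bile duct cells also express, cleared the count minimum in CAPZ_KO only, with counts of 204, 87, 128 and 35 in the CAPZ_KO libraries, against 0, 0, 2 and 3 in the WT libraries. Fabp2 had a log2 fold change of −0.48 (edgeR adjusted p = 0.383), and the part of gut markers in the Npc1l1 counts was not tested.

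Variation within the groups ran through the synthesis genes together. CAPZ_KO 1 and CAPZ_KO 3 were each above their group's mean log2 level in 18 of 19 synthesis genes, while CAPZ_KO 2 was below it in 17 and CAPZ_KO 4 in 18. Among WT libraries, WT 1 was above in 16 and WT 3 in 15, while WT 2 was below in 13 and WT 4 in 18. The synthesis genes thus deviated the same way in equal replicate numbers of both groups. The median deviation was 0.32 in CAPZ_KO 3 and −0.30 in CAPZ_KO 4, and 0.36 in WT 1 and −0.36 in WT 4, all on the log2 scale. CAPZ_KO 4 was the lowest of its group for 68.4% of the synthesis genes, against 27.6% of all tested genes, and WT 4 for 73.7%, against 22.6%. These are the female libraries, 1 in each group, and the part of sex in this pattern was not tested. Insig1 followed a like order in CAPZ_KO, where libraries 3 and 1 were high and 4 was low. In WT it was highest in WT 3 (450.3 CPM) and lowest in WT 2 (155 CPM), with WT 4 at 204 CPM. Median coefficients of variation were 20.6% in CAPZ_KO and 23.2% in WT for the synthesis genes, against 14.8% and 21.0% for all tested genes.

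**Figure D4:**
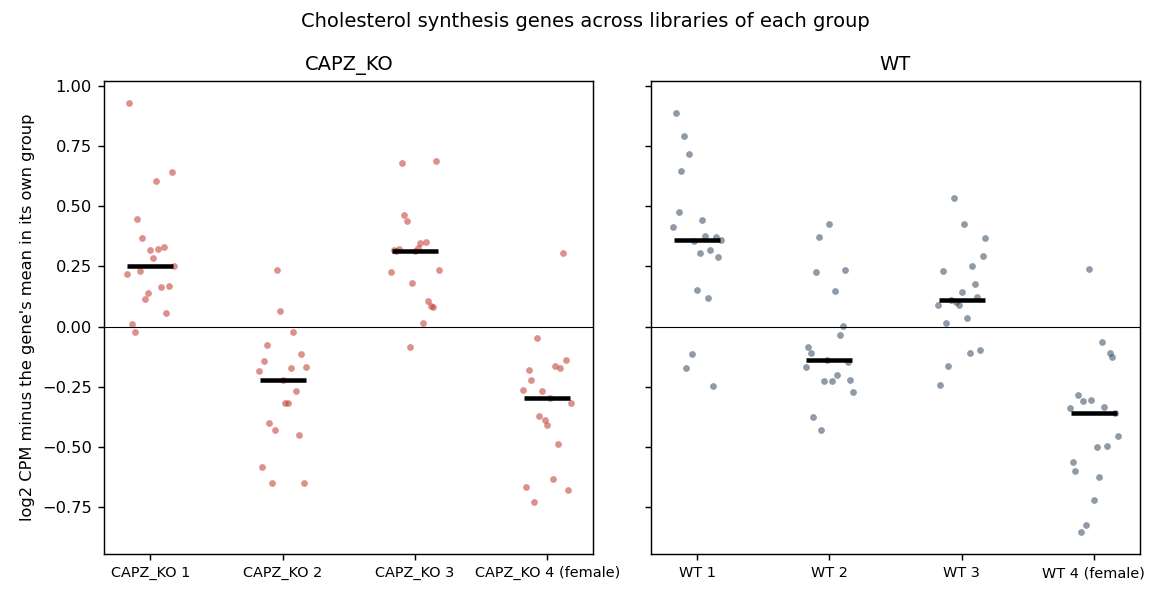
Deviation of each of the 19 synthesis genes from its mean log2 CPM in its own group (y axis), by library (x axis), in CAPZ_KO (left) and WT (right). Each point is a gene, spread sideways only for legibility, and black bars are medians. Medians run from −0.30 to 0.32 in CAPZ_KO and from −0.36 to 0.36 in WT, with replicate 4 the lowest in both.

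Of 47 other genes of sterol synthesis and handling, all tested, 16 fell and 3 rose, and their median was −0.33 (log2 fold change). Among all tested genes, 19.0% were called lower and 22.4% higher. The genes named here had the smallest p in their direction, and each value is a log2 fold change. Ebpl, a relative of Ebp, had −1.26 (edgeR adjusted p = 0.000674), and Cyb5a, a cytochrome that hands electrons to desaturases and oxidases of the route, had −0.83 (edgeR adjusted p = 0.002). Pgrmc1, a heme protein of the endoplasmic reticulum, had −0.74 (edgeR adjusted p = 0.00222), and Sar1b, a GTPase of the vesicles that leave it, had −1.18 (edgeR adjusted p = 0.000299). Cyp27a1, which makes oxysterols and bile acids, had −1.63 (edgeR adjusted p = 0.000215), and Lcat, the plasma enzyme that esterifies cholesterol, had −1.36 (edgeR adjusted p = 0.000724). Another of the 16, Cyp46a1, a sterol hydroxylase chiefly of brain, cleared the count minimum in WT libraries only and had to differ. Its counts were 4, 1, 3 and 1 in the CAPZ_KO libraries, against 9, 15, 15 and 56 in the WT libraries.

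Acat1, the mitochondrial thiolase, fell as well, with a log2 fold change of −1.65 with an SE of 0.155 (edgeR adjusted p = 5.31e-05). Besides Soat1 the genes that rose were Abcg1, a sterol exporter abundant in macrophages, at 1.17 with an SE of 0.220 (log2, edgeR adjusted p = 0.00212), and Nfya, the subunit of NF-Y that reads CCAAT, at 0.58 with an SE of 0.158 (log2, edgeR adjusted p = 0.0142). Without CAPZ_KO 3 the Nfya call was lost (edgeR adjusted p = 0.056). The other NF-Y subunits, named after their values were seen, lay below 0 and were not called. Nfyb was at −0.46 and Nfyc at −0.29 (log2, edgeR adjusted p = 0.0782 and 0.144). Markers of macrophages moved with Abcg1 and Soat1. Of 8 such markers 5 rose, with a median of 1.10 on the log2 scale and a summed level of 1443 to 3086 CPM in CAPZ_KO and 724 to 1638 CPM in WT, and their part in these rises was not tested. Stellate cell markers rose in 7 of 8 and cholangiocyte markers in 4 of 7 tested, of which Cftr cleared the count minimum in CAPZ_KO only and had to differ, with medians of 1.58 and 3.0 and summed levels of 871 to 1350.2 CPM in CAPZ_KO and 356 to 425 CPM in WT, and of 367 to 1087 CPM in CAPZ_KO and 42.7 to 79.6 CPM in WT. Endothelial markers rose in 2 of 6 (Pecam1 and Cdh5), where 22.4% of all tested genes were called higher. Of the other endothelial markers, Kdr at −0.19, Stab2 at −0.006 and Clec4g at −0.16 had negative log2 fold changes. Lyve1, at 0.88, was not called (edgeR adjusted p = 0.0809). T and NK cell and B cell markers rose in 0 of 5 and 0 of 4 by edgeR, and in 0 of either at an unadjusted p under 0.05.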

How the data were processed

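Per the labels' protocols, livers were perfused and poly(A) RNA went into a stranded kit, 1 library a sample. The authors deposited raw read counts per gene symbol, not scaled to library size. The submitters' processing notes name bcl2fastq, STAR 2.5.3a, featureCounts, R 3.3.1, edgeR and the build mm10, with no role or order. The gene annotation, the strand setting of the counting and the treatment of multi-mapping reads are not given there or in the other sources used here.

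Genes were kept by filterByExpr of edgeR 4.0.16 (minimum count 10, minimum total 15), which left 12985 of 24421. Counts were scaled by TMM, with factors of 1.18 to 1.33 in CAPZ_KO and 0.774 to 0.847 in WT, and compared in edgeR with its quasi-likelihood test (robust dispersion, all 8 libraries, no covariate) and Benjamini-Hochberg adjustment (R 4.3.3). Each adjusted p comes from it unless another tool is named, and SE is from its F statistic. A fit to simulated counts was checked. The alternatives were other scalings and filters, DESeq2 1.42.0, limma-voom (limma 3.58.1), a threshold of 0.01, a replicate block, sex as a term and leaving out libraries. Members, lists and tests were chosen with earlier results of these data known. CPM per library is given for members called and for control genes, and from the 47 other genes at most 10 per direction are named by smallest p. A few genes of the pathway are not reported here. Samples are not labelled as separate animals, and p-values then reflect only how these samples vary, which may be technical. No 2 libraries of a group were duplicates (chi-square per degree of freedom of at least 25.2). Positions and exon lengths come from GENCODE vM21 (GRCm38, which is mm10).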

Additional observations from a re-analysis of the deposited data

Results flagged for a closer look

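Ebp in WT 1 stood at 449 CPM, apart from the other 3 WT libraries at 313 to 324 CPM, a gap of 0.922 of the group's range; Dixon's test at the 95% level marked it. It was 1 of 54 sets of 4 libraries examined, and chance flags about 1 in 20. Without WT 1 Ebp had a log2 fold change of −1.64 (edgeR adjusted p = 6.32e-05).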

How the results depend on the processing

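Under library sizes alone 4 members rose (Insig2, Ggps1, Srebf2 and Soat2) and 10 fell, 7665 of all genes were higher and 700 lower, and of the other sterol genes 20 were higher and 7 lower. Reversed there, in log2 fold change, were Hmgcs1 at 0.33, Mvk at 0.27, Mvd at 0.18, Dhcr7 at 0.23, Srebf2 at 0.55, Soat2 at 0.37 and Mbtps1 at 0.46, all uncalled with TMM; that scaling shifts the median of all genes by 0.625. Srebf2 was also at 0.00962 without both female libraries, and leaving out 1 library gave −0.77 to 0.0421 for Hmgcs1 (highest without WT 1) and −0.0238 to 0.17 for Ggps1 (lowest without CAPZ_KO 2); the cause was not tested. With upper quartile scaling, DESeq2 and limma-voom 1 member (Insig2) rose, and with no filter 1 (Npc1l1). At a threshold of 0.01, 1864 of all genes were higher and 1439 lower, against 2913 and 2469, and 13 members were lower and 1 other sterol gene higher. Leaving out 1 library gave 0 to 1 members higher (Insig2, without WT 1), 16 to 19 lower, 1 to 3 other sterol genes higher (Abcg1 alone without CAPZ_KO 3) and 15 to 18 lower, 2371 to 2964 of all genes higher and 2100 to 2658 lower; 16 of the 18 falls held in all 8 such fits, Sqle and Lss being the exceptions. The 2 ratios reported kept their direction in every setting run, with log2 differences without 1 library of −2.39 to −1.60 and −1.50 to −1.0. Replicate numbers are shared between groups. Over all genes, equal numbers correlated at 0.0251 to 0.301 in their deviations, and unequal numbers at −0.271 to 0.106. They were not taken as pairs, although the synthesis genes deviated alike in all 4 numbers, and some calls depend on that choice. With the replicate block 1 member (Insig2) rose and 20 fell, with Insig1 (edgeR adjusted p = 0.00186) and Dhcr7 (0.0333) added, and 21 other sterol genes were lower. Numbers of 4 libraries a group limit which small changes can be called. The wide intervals of Hmgcs1 and Mvd depend on the model too. Their SEs were 0.416 and 0.390 in the main fit, and 0.186 and 0.236 with the replicate block.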
